A study of Mus musculus with 8 samples.

Results

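The proteasome genes were examined in mouse lung as the rows of the deposited table whose symbol starts with Psma, Psmb, Psmc, Psmd, Psme, Psmf or Psmg and whose mean over all libraries is at least 1 count per 1000000 reads (CPM). Of 15728 rows, 50 carry such a symbol and 49 reach that level. The remaining one is Psma8, an alpha subunit known from the testis, with a mean of 0.605 CPM. Psmb9 is listed under 2 identifiers with identical values and Psmd14 under 2 identifiers with means of 68.8 and 68.7 CPM, so the 49 rows stand for 47 genes, each counted once below. All 47 passed the level filter of the test. Of these, Psmc3ip shares only the prefix, since its product acts in meiotic recombination, and Psme2b-ps is a retrocopy of Psme2.

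Lung RNA of 4 triply n/i/eNOSs-/- mice, which lack all 3 nitric oxide synthases (the neuronal, the inducible and the endothelial one), was compared with that of 4 wild type mice. Both groups are labelled as on the C57BL/6J strain background, 4 weeks old and unexposed. The assay was cap analysis of gene expression (CAGE), which reads the capped 5′ end of each transcript, so that a level in CPM needs no correction for transcript length. Library totals were 13014134 to 15096188 reads in the knockout and 15598154 to 18593913 reads in wild type, so depth and genotype cannot be told apart, and 3 reads correspond to 0.161 to 0.231 CPM. Nos3, the one nitric oxide synthase gene with a row in the table used here, stood at 5.56 to 8.83 CPM in the knockout and 18.2 to 22.8 CPM in wild type, and the sources used here do not say whether its reads lie inside the deleted part. Defining lung markers were present in every library and did not move together. Of 4 alveolar type 2 markers, 1 was higher in the knockout (Abca3, log2 fold change 0.92), 2 lower (Sftpc, -0.89, and Sftpa1, -0.34) and Sftpb not called (-0.02). The call of Sftpc ended with quantile normalization. Both ciliated cell markers were lower (Foxj1, -0.72, and Rsph1, -0.80), and neither of the 2 club cell markers was called by limma (0 also at an unadjusted p under 0.05, by edgeR and by DESeq2). The part of these cell types in the results on the proteasome genes was not tested. The labels give no sex, litter or time of collection. In whole lung, fewer cells of a type and less RNA per cell cannot be told apart.

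The proteasome is the protease that degrades ubiquitin-tagged proteins in the cytosol and nucleus. Its barrel-shaped 20S core is built from outer rings of alpha subunits, which gate entry, and inner rings of beta subunits, of which Psmb5, Psmb6 and Psmb7 carry the cutting sites. A 19S cap of ATPases and other subunits recognises, unfolds and feeds in substrates. In immune cells and under interferon, Psmb8, Psmb9 and Psmb10 take the places of Psmb5, Psmb6 and Psmb7, and the Psme1 and Psme2 activator is induced, which changes the peptides made for MHC class I. In lung this immunoproteasome is known mainly from leukocytes and from inflamed epithelium.

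Summed over the 47 genes, expression was at about the same level in both genotypes, while individual subunits moved in opposite directions. The 47 genes summed to 4715, 4689, 4773 and 4490 CPM in the knockout and to 4792, 4878, 4788 and 4536 CPM in wild type, and these sums overlap. They are not sums over the whole proteasome, since they leave out subunit genes with other prefixes. Among those are Shfm1 (1372 ± 109 CPM in the knockout, 1042 ± 40.3 CPM in wild type) and Adrm1 (40.6 ± 1.56 CPM in the knockout, 52.2 ± 4.18 CPM in wild type). Of the 47 genes, 7 were higher and 8 lower in the knockout at an adjusted p under 0.05 (limma on log2(CPM + 0.5), Benjamini-Hochberg over 14065 genes). That is 31.9% of the members, beside 30.9% of all genes tested, so in this fit the share is close to that of the background. By direction this background was 16.6% of genes higher and 14.3% lower. Among 4610 tested genes with a mean of 28.9 to 206 CPM, the central 80% of member means, 35.8% were called. Changes were small, with log2 fold changes (knockout minus wild type) from -0.65 to 0.35 and a median size of 0.25 among the called members, against 0.42 among all called genes. Called or not, the median size was 0.164 among the 47 members, 0.175 among the 4610 genes of that level and 0.194 among all tested genes. The median over the 47 members was -0.07, against 0.01 over all tested genes. Both the number called and the split depend on scaling. After trimmed mean of M values (TMM) scaling 6 members were higher and 14 lower, beside 15.6% and 16.9% of all genes (32.6% called). Median-ratio scaling also gave 6 and 14 (15.9% and 16.9% of all genes, 32.8% called), and quantile normalization 5 and 15 (16.9% and 15.3%, 32.2% called). On recovered reads edgeR called 6 higher and 13 lower (16.0% and 16.5% of all genes, 32.5% called), and DESeq2 6 and 14 (15.6% and 16.1%, 31.7% called). With each of these scalings and count tests, the share of members called was above that of all genes. Without regard to a test, the genotypes did not overlap for 23 members, 11 above and 12 below wild type, beside 31.2% of all genes (16.8% above and 14.3% below). The count of lower members was 5 when wild type replicate 1, 2 or 3 was left out. No called member changed its direction in any of the 18 alternatives run, and 9 of the 15 kept their call in all of them: Psmb2, Psmb5, Psmb9, Psma7, Psmc4, Psmd1, Psmd3, Psme4 and Psmg4.

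**Figure D1:**
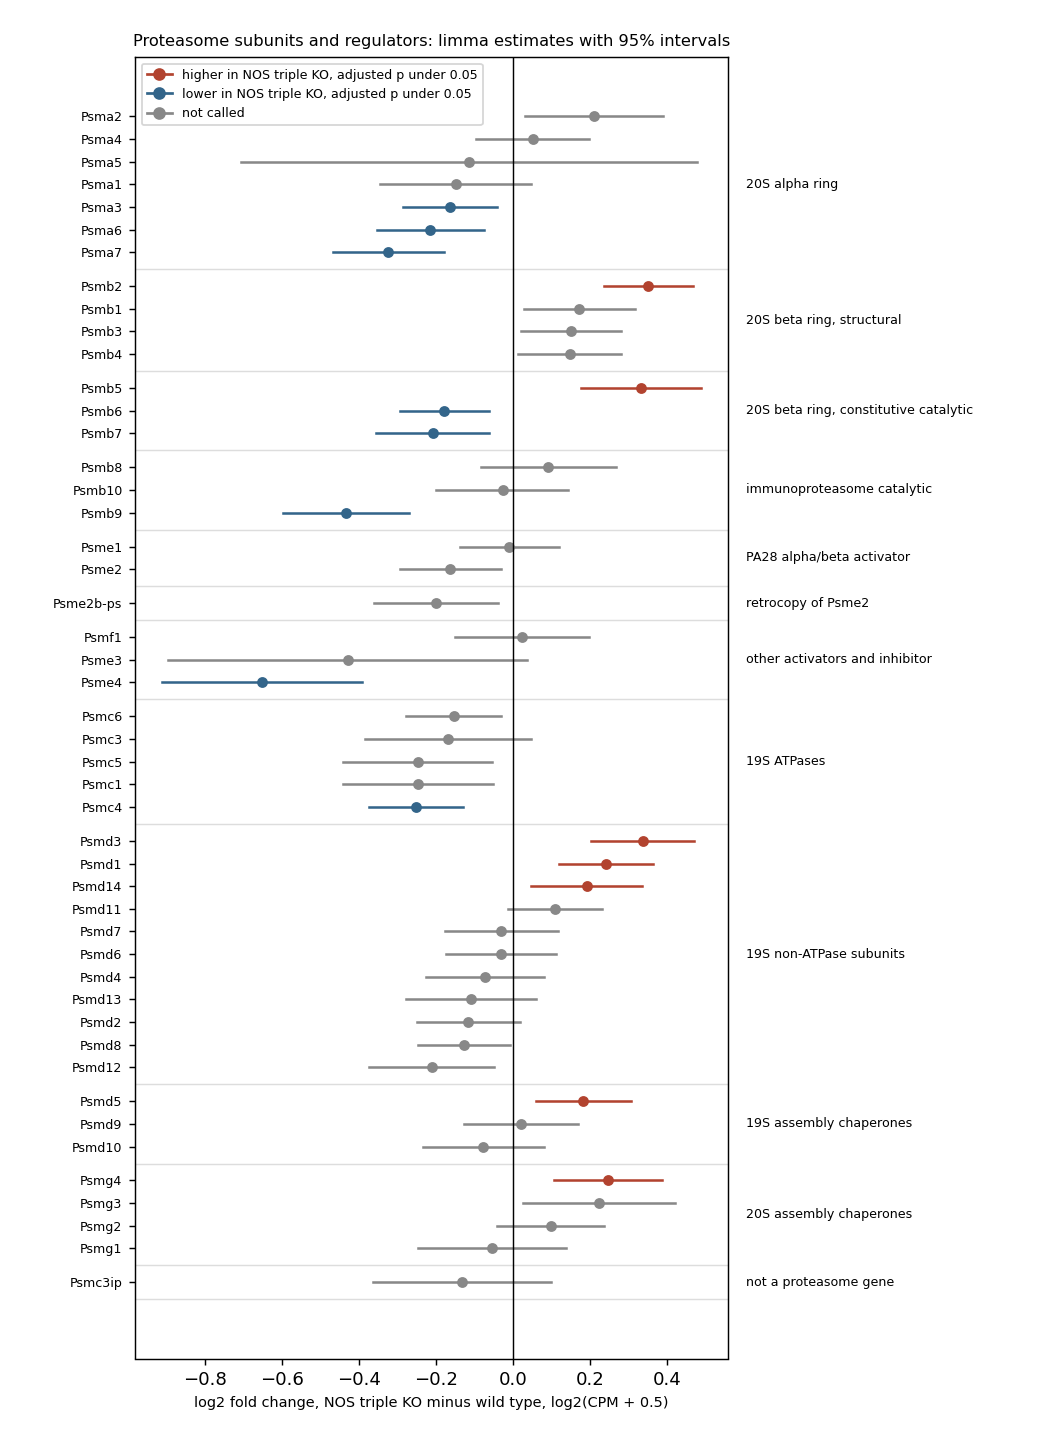
Log2 fold change of 47 proteasome genes on the x axis, knockout minus wild type on log2(CPM + 0.5), one gene per line and grouped by role, with points for limma estimates and bars for 95% intervals. Red genes were called higher (7), blue ones lower (8) and grey ones were not called (32). The 4 structural beta genes lie to the right of 0 and the 5 ATPase genes to the left.

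Among the immunoproteasome genes only Psmb9 passed the test. Psmb9, whose product replaces Psmb6 and cuts after hydrophobic rather than acidic residues, stood at 35.2, 40.8, 36.9 and 38.6 CPM in the knockout and at 55.9, 52.4, 46.8 and 50.3 CPM in wild type. Every knockout library was below every wild type library. It fell to 0.74 of the wild type level (log2 fold change -0.43 ± 0.0746 SE, adjusted p = 0.00168 by limma). Psmb8, whose product replaces Psmb5, stood at 142.6, 186.8, 159.0 and 162.6 CPM in the knockout and at 160.3, 143.4, 155.8 and 148.9 CPM in wild type. The genotypes overlap and the 95% interval of the log2 difference ran from -0.08 to 0.27. Psmb10, whose product replaces Psmb7, also overlapped, with 70.3, 75.2, 78.5 and 63.2 CPM in the knockout and 74.6, 78.4, 71.5 and 67.8 CPM in wild type (interval -0.20 to 0.14).

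Psme1 and Psme2 encode the alternating subunits of the ring-shaped PA28 activator, which opens the core without ubiquitin or ATP. Psme1 stood at 158.5, 145.3, 158.5 and 165.1 CPM in the knockout and at 156.5, 153.2, 165.8 and 155.3 CPM in wild type. Its genotypes overlap (95% interval of the log2 difference -0.14 to 0.12). Psme2 stood at 132.4, 139.8, 136.9 and 128.4 CPM in the knockout and at 162.5, 151.6, 144.4 and 143.7 CPM in wild type. Here every knockout library lay below every wild type library, but the limma test did not call it (log2 fold change -0.16, adjusted p = 0.0598). TMM, median-ratio and quantile scaling and both count tests on recovered reads did call Psme2 lower (adjusted p = 0.0144 to 0.166 over all alternatives). Its retrocopy Psme2b-ps, with 100% identity over 200 nt at the 5′ end, stood at 48.82, 54.91, 58.04 and 50.02 CPM in the knockout and at 65.25, 60.99, 57.22 and 59.88 CPM in wild type, which overlap (adjusted p = 0.0587), and how reads were divided between both makes their values uncertain. Summed over both rows, the level was 187.3 ± 8.73 CPM in the knockout and 211.4 ± 11.9 CPM in wild type (SD, n = 4 each), with no overlap.

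All 3 constitutive catalytic genes were called, beside 30.9% of all genes, and not in the same direction. Psmb5, the chymotrypsin-like subunit, stood at 183.6, 204.8, 206.3 and 179.9 CPM in the knockout and at 166.2, 140.5, 150.2 and 158.0 CPM in wild type. All knockout libraries were above all wild type libraries, and it rose 1.26-fold (log2 fold change 0.33, SE 0.0713, limma adjusted p = 0.00555). Psmb6, the caspase-like subunit, stood at 234.3, 230.5, 230.5 and 216.0 CPM in the knockout and at 262.7, 252.2, 265.1 and 251.3 CPM in wild type. It was lower without overlap, falling to 0.884 of the wild type level (adjusted p = 0.0243). Psmb7, the trypsin-like subunit, was the least abundant of them, with 30.9, 33.3, 31.8 and 34.6 CPM in the knockout and 35.8, 37.1, 38.9 and 39.4 CPM in wild type. It also fell without overlap (log2 fold change -0.21, adjusted p = 0.0356). The call of Psmb6 ended if KO 3 or 4, or WT 1 or 3, was left out (KO and WT with a replicate number stand for the library; adjusted p up to 0.0657), and that of Psmb7 without KO 1 or 3 or WT 2, 3 or 4 (up to 0.0882). The sum of the 3 genes was 454.1 ± 18.3 CPM in the knockout and 449.4 ± 14.6 CPM in wild type.

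**Figure D2:**
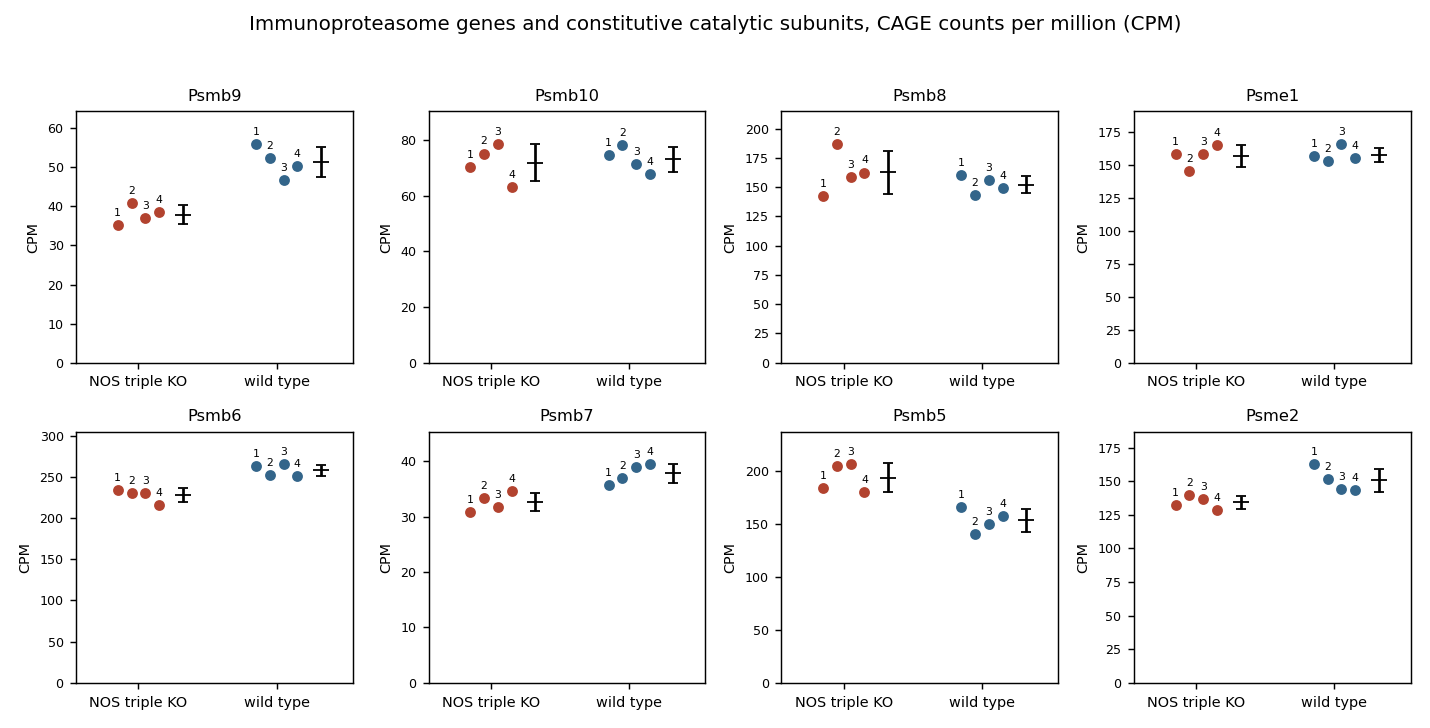
CPM of the 3 immunoproteasome catalytic genes, the 3 constitutive catalytic genes and the PA28 genes in each library, knockout left and wild type right. Points are libraries numbered by replicate, and black bars are mean ± SD (n = 4). The genotypes separate for Psmb9, Psmb6, Psmb7, Psme2 (knockout lower) and Psmb5 (knockout higher), and overlap for Psmb8, Psmb10 and Psme1.

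At the level of transcripts, the induced gene was set against the constitutive one that it replaces, as a ratio within each library. Such a ratio does not measure the exchange of subunits in assembled proteasomes. The Psmb8/Psmb5 ratio was 0.777, 0.912, 0.771 and 0.904 in the knockout and 0.964, 1.02, 1.04 and 0.943 in wild type. These values do not overlap, and the log2 difference was -0.24 (SE 0.0741, exact permutation test over 70 splits, two-sided, p = 0.0286, the smallest possible with 4 against 4). Adjusted over the 3 pairs its p was 0.0857 (exact permutation), and with the other 2 pairs above the smallest p the design lets no single pair pass. Of its terms, Psmb5 was called and Psmb8 was not. The Psmb9/Psmb6 ratio was 0.152, 0.179, 0.162 and 0.180 in the knockout and 0.214, 0.209, 0.178 and 0.202 in wild type. One wild type library lay within the knockout range (log2 difference -0.25, exact permutation p = 0.0857, adjusted p = 0.129). The Psmb10/Psmb7 ratio averaged 2.19 ± 0.265 in the knockout and 1.93 ± 0.189 in wild type (SD, n = 4 each; exact permutation p = 0.171, adjusted p = 0.171). The 3 differences do not share a sign.

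**Figure D3:**
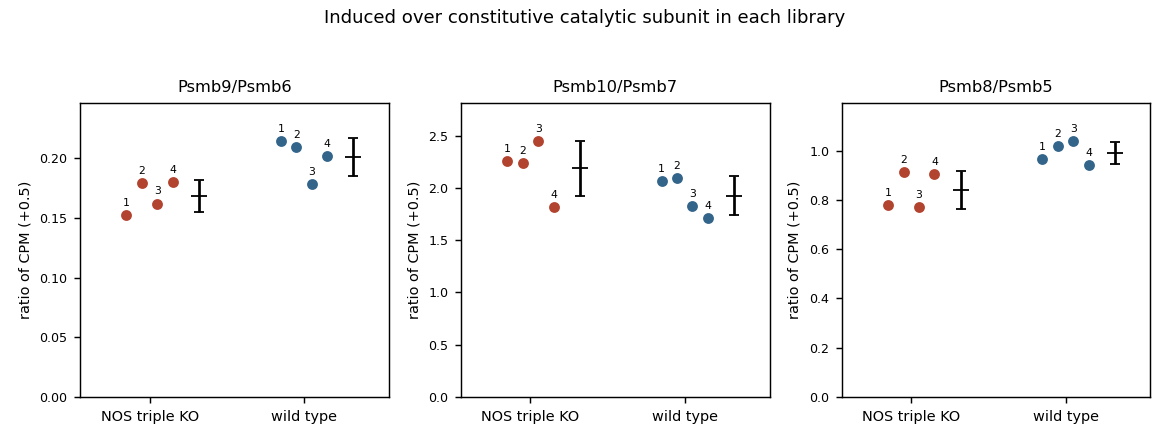
Ratio of induced to constitutive catalytic gene, computed on CPM + 0.5, in each library, knockout left and wild type right. Points are libraries numbered by replicate, with mean ± SD in black (n = 4). The Psmb8/Psmb5 ratio separates the genotypes, 0.771 to 0.912 in the knockout and 0.943 to 1.04 in wild type, and the other 2 overlap.

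CAGE reads begin at transcription starts, next to the promoter. Promoter windows from RefSeq (GRCm38.p6, 250 bases before to 50 after the start) were found for 39 of the 47 genes, in 41 windows. The submitters' processing notes name mm9 as the build, so these windows are given for their sequence and not as positions of the reads. Shown are the windows of Psmb9, Psmb8, Psmb6, Psmb5 and Psme4, chosen as the induced and constitutive genes with a window whose ratios are given above and the member with the largest fold change. Capitals mark matches, on either strand, to the antioxidant-type pattern TGANNNNGC, the interferon-stimulated response element, the gamma-activated site TTCNNNGAA or the box CCAAT. TGANNNNGC is a loose pattern that takes in sequences bound by NRF factors, which drive proteasome genes, and other sequences too.
Psmb9, chr17:34187281-34187580, minus strand: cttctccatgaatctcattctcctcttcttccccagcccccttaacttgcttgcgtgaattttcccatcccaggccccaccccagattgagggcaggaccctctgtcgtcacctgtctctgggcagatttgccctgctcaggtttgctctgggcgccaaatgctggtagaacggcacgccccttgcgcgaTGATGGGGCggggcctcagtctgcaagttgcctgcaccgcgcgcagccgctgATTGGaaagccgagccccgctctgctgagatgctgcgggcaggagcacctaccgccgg
Psmb8, chr17:34197945-34198244, plus strand: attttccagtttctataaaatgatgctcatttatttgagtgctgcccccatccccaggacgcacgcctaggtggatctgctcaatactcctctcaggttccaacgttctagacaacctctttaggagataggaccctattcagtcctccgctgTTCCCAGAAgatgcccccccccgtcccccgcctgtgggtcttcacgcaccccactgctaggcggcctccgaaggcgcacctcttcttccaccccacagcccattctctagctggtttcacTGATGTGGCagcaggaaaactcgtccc
Psmb6, chr11:70525107-70525406, plus strand: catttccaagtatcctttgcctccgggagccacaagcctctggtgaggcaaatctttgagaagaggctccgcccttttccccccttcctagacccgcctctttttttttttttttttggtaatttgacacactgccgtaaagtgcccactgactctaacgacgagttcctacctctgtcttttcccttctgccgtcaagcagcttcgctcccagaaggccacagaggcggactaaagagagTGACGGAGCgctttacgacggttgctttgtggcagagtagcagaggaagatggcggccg
Psmb5, chr14:54617946-54618245, minus strand: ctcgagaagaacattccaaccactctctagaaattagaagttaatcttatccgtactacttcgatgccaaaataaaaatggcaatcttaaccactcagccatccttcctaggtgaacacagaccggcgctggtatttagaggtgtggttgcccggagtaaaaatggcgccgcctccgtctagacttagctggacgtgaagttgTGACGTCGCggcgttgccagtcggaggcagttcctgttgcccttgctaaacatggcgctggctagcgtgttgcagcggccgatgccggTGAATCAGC
Psme4, chr11:30771525-30771824, plus strand: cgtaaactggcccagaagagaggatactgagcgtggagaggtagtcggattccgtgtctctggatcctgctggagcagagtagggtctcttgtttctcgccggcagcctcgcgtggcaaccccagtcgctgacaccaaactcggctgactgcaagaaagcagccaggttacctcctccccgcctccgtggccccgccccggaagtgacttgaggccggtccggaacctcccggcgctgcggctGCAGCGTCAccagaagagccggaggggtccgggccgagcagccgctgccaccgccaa
Each of the 5 windows holds TGANNNNGC, the one in Psme4 on the opposite strand, and Psmb5 holds it at 2 places. That pattern was found in 24 of the 41 member windows (58.5%), against 41.3% of 32851 windows of all genes. It stood in 4 of 5 genes called higher, 5 of 7 called lower and 13 of 27 not called that had a window. TTCNNNGAA stood in Psmb8, Psmd2 and Psmg1 (7.3% of member windows, 8.3% of all), and the interferon-stimulated response element in Psme1, Psmb3, Psmd4, Psmd9 and Psmg4 (12.2% of member windows, 3.4% of all). Of the windows shown, Psmb9 alone holds CCAAT, as ATTGG on the opposite strand; 31.7% of member windows and 37.4% of all windows hold it. A match here is a description of letters and not a binding site.

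Psmb9 starts 30 bases from Tap1, a peptide transporter gene on the opposite strand, and their gene models overlap. The sources used here do not state how strand was used, so reads of both cannot be told apart with certainty. Tap1 stood at 12.1 ± 0.764 CPM in the knockout and 14.3 ± 2.54 CPM in wild type (SD, n = 4 each; adjusted p = 0.177). Psmb9 was the more abundant of the pair in every library.

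Of the 4 non-catalytic beta genes, 1 was called (25.0%, beside 30.9% of all genes), and it rose. Psmb2 had the smallest adjusted p of all members. It stood at 135.4, 135.2, 136.6 and 128.5 CPM in the knockout and at 102.3, 102.6, 107.2 and 107.1 CPM in wild type. It rose 1.28-fold without overlap (log2 fold change 0.35, SE 0.0525, limma adjusted p = 0.000724). Psmb1, Psmb3 and Psmb4 were also above wild type in every library, by 0.17, 0.15 and 0.15 on the log2 scale, but missed the threshold (adjusted p = 0.068, 0.0756 and 0.0872). Psmb3 has the listed copy Gm5356, at 0.16 ± 0.105 CPM in the knockout and 0.30 ± 0.187 CPM in wild type. The genotypes thus did not overlap for any of the 7 constitutive beta genes, 5 above and 2 below wild type. Over all genes they did not overlap for 31.2% (16.8% above and 14.3% below). The 4 structural genes summed to 616, 609, 658 and 629 CPM in the knockout and to 547, 552, 537 and 549 CPM in wild type.

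In the alpha ring 3 of 7 genes were called (42.9%, beside 30.9% of all genes), and all 3 fell. Psma7 stood at 218.9, 197.5, 206.3 and 197.1 CPM in the knockout and at 271.6, 274.8, 241.3 and 240.7 CPM in wild type. It fell to 0.798 of the wild type level without overlap (log2 fold change -0.32, SE 0.0657, limma adjusted p = 0.00406). Psma7 begins 76 bases from Ss18l1 on the opposite strand, which stood at 4.01 ± 0.335 CPM in the knockout and 3.22 ± 0.373 CPM in wild type. Psma6 stood at 91.7, 86.2, 96.5 and 85.0 CPM in the knockout and at 110.5, 105.7, 101.0 and 99.9 CPM in wild type, again with no overlap (adjusted p = 0.0243). Psma3 stood at 285.4, 266.8, 297.4 and 273.2 CPM in the knockout and at 320.8, 324.1, 310.6 and 302.0 CPM in wild type, the smallest of the 3 changes (log2 fold change -0.16, adjusted p = 0.0442). The call of Psma6 ended without KO 2 or 4 or WT 1 or 2 (adjusted p up to 0.0736). That of Psma3 ended without KO 1, 2 or 4 or WT 1, 2 or 3, and with replicate number added to the model (up to 0.109). Psma3 has a listed copy, Gm13835, at 17.9 ± 0.864 CPM in the knockout and 18.6 ± 1.1 CPM in wild type. Counted together with Gm13835 and Gm5406, the level was 298.8 ± 14.1 CPM in the knockout and 333.1 ± 11 CPM in wild type, still without overlap.

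The other alpha genes were not called. Psma2 was at 290.1 ± 18.6 CPM in the knockout and 251.4 ± 27.6 CPM in wild type (log2 fold change 0.21, adjusted p = 0.0722), and Psma1 at 97.5 ± 9.04 CPM in the knockout and 108.3 ± 10.8 CPM in wild type. Psma4 stood at 59.5, 60.5, 64.9 and 57.9 CPM in the knockout and at 56.5, 63.4, 59.5 and 54.9 CPM in wild type, which overlap. Its listed copy Gm6542 was at 11.5 ± 0.937 CPM in the knockout and 12.8 ± 0.783 CPM in wild type. Psma5 varied more than any other member within a genotype and was singled out after its values were seen. Its levels were 152.1, 76.6, 92.0 and 100.5 CPM in the knockout and 76.7, 164.5, 151.0 and 77.6 CPM in wild type. The highest library had 1.99 times the lowest in the knockout and 2.14 times the lowest in wild type, and the genotype difference could not be resolved (95% interval of the log2 difference -0.71 to 0.48). A listed copy of Psma5, Gm12989, stood at 0.40 ± 0.097 CPM in the knockout and 0.145 ± 0.0676 CPM in wild type.

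Of the activators outside the immunoproteasome, Psme4 fell the most of all members. Psme4 encodes PA200, a nuclear activator known from DNA repair and sperm development. It stood at 19.5, 22.8, 17.4 and 22.3 CPM in the knockout and at 36.7, 36.8, 27.7 and 29.1 CPM in wild type. It fell to 0.636 of the wild type level without overlap (log2 fold change -0.65, SE 0.118, limma adjusted p = 0.00223). Psme3, the nuclear PA28 gamma activator, had a wide spread and was not called, with 61.3, 54.8, 41.5 and 32.3 CPM in the knockout and 48.4, 57.3, 59.7 and 90.7 CPM in wild type (adjusted p = 0.146). Psmf1, which encodes the regulator PI31, stood at 30.7 ± 2.1 CPM in the knockout and 30.2 ± 2.3 CPM in wild type (SD, n = 4 each).

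**Figure D4:**
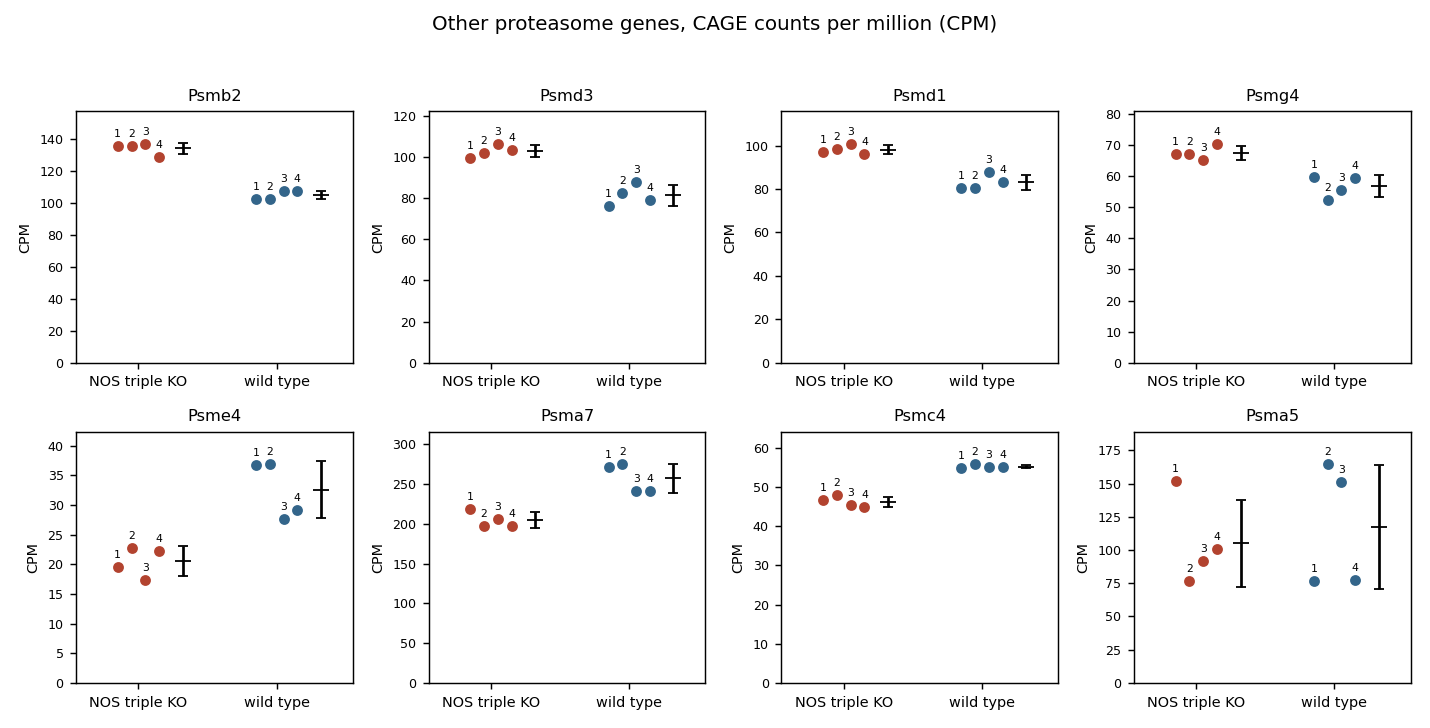
CPM in each library of 7 called proteasome genes outside the catalytic set and of Psma5, knockout left and wild type right. Points are libraries numbered by replicate, with mean ± SD in black (n = 4). Psmb2, Psmd3, Psmd1 and Psmg4 are higher and Psme4, Psma7 and Psmc4 lower in every knockout library, while Psma5 spreads from 76.6 to 152.1 CPM in the knockout and from 76.7 to 164.5 CPM in wild type.

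The 19S base ATPases, which unfold substrates and open the core, had negative log2 fold changes for all 5 genes measured, and 1 was called. Of all 14065 genes tested, 6809 had negative log2 fold changes. In the same limma fit 30.9% of all genes were called, and 14.3% were called lower. Psmc4 stood at 46.7, 47.9, 45.5 and 45.0 CPM in the knockout and at 54.7, 55.8, 55.1 and 55.1 CPM in wild type. It fell to 0.839 of the wild type level with no overlap (log2 fold change -0.25, SE 0.0559, limma adjusted p = 0.00639). Psmc1, Psmc5, Psmc6 and Psmc3 had log2 fold changes of -0.25, -0.25, -0.15 and -0.17 and missed the threshold (adjusted p = 0.0538, 0.053, 0.059 and 0.217). The count of calls rests on scaling here: 4 of the 5 were called lower after TMM scaling, and also by edgeR and by DESeq2 on recovered reads. Of all genes, TMM scaling called 16.9% lower, edgeR 16.5% and DESeq2 16.1%. In level, Psmc1 was lowest of the ATPase genes, at 11.4 ± 0.788 CPM in the knockout and 13.7 ± 1.04 CPM in wild type, and Psmc3 highest, at 177.9 ± 20.4 CPM in the knockout and 199.9 ± 21.4 CPM in wild type. Psmc2 was not analysed here.

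Of the 11 non-ATPase 19S genes, 3 were called, all higher, which is 27.3% beside 30.9% of all genes. Psmd3, a scaffold of the lid, stood at 99.6, 101.8, 106.3 and 103.7 CPM in the knockout and at 76.3, 82.4, 87.9 and 79.0 CPM in wild type. It rose 1.26-fold without overlap (log2 fold change 0.34, SE 0.061, limma adjusted p = 0.00222). Psmd1, the large scaffold of the base, stood at 97.2, 98.7, 100.7 and 96.4 CPM in the knockout and at 80.4, 80.7, 88.1 and 83.2 CPM in wild type. It too rose without overlap (log2 fold change 0.24, adjusted p = 0.00775). Psmd14, the metalloprotease that removes ubiquitin chains, stood at 67.0, 73.7, 75.0 and 77.8 CPM in the knockout and at 66.3, 60.2, 66.0 and 64.1 CPM in wild type. Its lowest knockout library was just above its highest wild type library. The call of Psmd14 (adjusted p = 0.0456 by limma) was lost without any library other than knockout replicate 1 and after each scaling. It was also lost with replicate number added to the model, and with edgeR or DESeq2 (up to 0.125).

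The other 8 non-ATPase genes had log2 fold changes from -0.21 to 0.11. Psmd12, a lid subunit, was nearest to the threshold, at 65.9 ± 5.84 CPM in the knockout and 76.2 ± 4 CPM in wild type (adjusted p = 0.0507). The ubiquitin receptor Psmd4 stood at 101.4 ± 8.78 CPM in the knockout and 106.4 ± 4.42 CPM in wild type, and the receptor and scaffold Psmd2 at 103.4 ± 3.74 CPM in the knockout and 112.2 ± 6.64 CPM in wild type (SD, n = 4 each). Neither was called. Psmd6, Psmd7, Psmd8, Psmd11 and Psmd13 make up the rest, and their log2 fold changes ran from -0.13 to 0.11. Psmd8 lay below wild type and Psmd11 above it without overlap, beside 31.2% of all genes without overlap. Psmd8 was called lower after TMM, median-ratio and quantile scaling and by DESeq2 (adjusted p = 0.0145 to 0.223 over all alternatives). Psmd11 was not called in any alternative.

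Assembly chaperones, which join subunits and leave the finished particle, were called for 2 of 7 genes, both higher. That is 28.6%, beside 30.9% of all genes. Psmg4 stood at 67.1, 67.3, 65.2 and 70.3 CPM in the knockout and at 59.8, 52.4, 55.5 and 59.5 CPM in wild type. It rose 1.19-fold without overlap (log2 fold change 0.25, SE 0.0638, limma adjusted p = 0.0131). Psmd5, a chaperone of the 19S base, stood at 75.7, 73.6, 75.5 and 74.2 CPM in the knockout and at 64.1, 67.0, 69.1 and 63.1 CPM in wild type. Its call (adjusted p = 0.0295) ended without KO 1 or 3 or WT 1, 2 or 4, and with quantile normalization (up to 0.0783). Psmg3, a partner of Psmg4 in core assembly, stood at 26.5 ± 2.53 CPM in the knockout and 22.6 ± 1.82 CPM in wild type (adjusted p = 0.0822). Psmg1, Psmg2, Psmd9 and Psmd10 had log2 fold changes from -0.08 to 0.10.

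Levels are uncertain where another listed gene model overlaps a member, since strand use is not given. Among called members this applied to Psmd1 (with Htr2b), Psmd3 (Gm12356), Psmd5 (D730039F16Rik), Psmb7 (Nek6), Psma3 (3110056K07Rik) and Psmb9. The overlapping genes were lower in level than the member in each case, from 0.0725 CPM for Htr2b in wild type to 26.7 ± 1.65 CPM for Nek6 in wild type. Of members with no listed copy, Psmb5, Psmd11 and Psme1 have near-identical 5′ copies outside the table used here, and the sources used here do not say how their reads were assigned. Psmg3 shares its 5′ sequence with an overlapping gene model outside that table.

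Among 37 other genes of the ubiquitin and proteasome pathway, 7 were higher and 3 lower, 27.0%, beside 30.9% of all genes. Of the remaining subunits and assembly factors, Shfm1, which encodes the small 19S subunit DSS1, rose to 1372 ± 109 CPM in the knockout, against 1042 ± 40.3 CPM in wild type (adjusted p = 0.00162). Adrm1, a ubiquitin receptor of the cap, fell to 40.6 ± 1.56 CPM in the knockout, against 52.2 ± 4.18 CPM in wild type (adjusted p = 0.00361). AI314180, the gene of the proteasome adaptor ECM29, stood at 40.9 ± 2.52 CPM in the knockout and 33.9 ± 1.51 CPM in wild type (adjusted p = 0.0137). Pomp, the maturation factor of the core, was not called, at 163.4 ± 5.6 CPM in the knockout and 182.4 ± 11.3 CPM in wild type.

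Ubb, a polyubiquitin gene, stood at 278 ± 15.8 CPM in the knockout and 261 ± 52.1 CPM in wild type (adjusted p = 0.496). Vcp, Fam192a and Zfand2a were called higher, and Ufd1l and Nploc4, partners of the unfoldase Vcp, lower. Of these, Ufd1l was called in every alternative. The calls of the others ended without 1 library. Vcp lost it without KO 3 or WT 1, 2 or 4 (adjusted p up to 0.0643), Fam192a without knockout or wild type replicate 3 (up to 0.0557), and Zfand2a without KO 3 or WT 1 (up to 0.0644). Nploc4 lost it without any knockout library or wild type replicate 3 or 4, with no filter on low values, with quantile normalization and with replicate number added to the model (up to 0.0997). Without knockout replicate 3, only 3 pathway genes were higher.

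Factors that transcribe proteasome genes, and proteins that act on them, were not called with all libraries in the fit. Among 7 such genes, which include the NRF2 inhibitor Keap1 and the glycanase Ngly1, limma called 0, and 0 had an unadjusted p under 0.05, with 0 called by edgeR or DESeq2. Nfe2l1, the factor that raises subunit genes when proteasome activity is short, stood at 188.7 ± 17.8 CPM in the knockout and 164.5 ± 24.8 CPM in wild type (adjusted p = 0.152). Nfe2l2, the stress factor NRF2, stood at 79.9 ± 4.52 CPM in the knockout and 88.1 ± 6.25 CPM in wild type (adjusted p = 0.145). Transcript levels do not measure the activity of either protein. Without wild type replicate 4, limma called Nfe2l1 higher (adjusted p = 0.0195). Without knockout replicate 1, it called Maff, another of the 7 genes, lower (adjusted p = 0.0147). The deubiquitinases and ligases at the proteasome, Usp14, Uchl5, Ube3a and Ube3c, were not called either (limma 0 of 4; unadjusted p under 0.05 for 2, edgeR and DESeq2 2 each).

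Psmb9 acts beside the genes of antigen presentation. Of 11 genes of MHC class I and its peptide supply, 4 were higher and 1 lower (45.5% called, beside 30.9% of all genes, 16.6% higher and 14.3% lower). The class I heavy chain genes H2-K1 and H2-D1 rose to 1124 ± 51.7 and 1539 ± 15.1 CPM in the knockout, against 959.6 ± 24.7 and 1229 ± 63.3 CPM in wild type (adjusted p = 0.00999 and 0.00168). Pdia3 and Canx, chaperones of class I folding, also rose, by 0.48 and 0.30 on the log2 scale. Tap2, the partner of Tap1, fell to 25.6 ± 2.47 CPM in the knockout, against 31.2 ± 2.39 CPM in wild type, a call that ended without KO 2, 3 or 4 or WT 1, 3 or 4 (adjusted p = 0.0297, up to 0.0835).

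Of 13 genes that carry the interferon signal, 5 were lower and 2 higher (53.8% called, beside 30.9% of all genes, 14.3% lower and 16.6% higher). Irf9, Jak1, Jak2 and Irf7 were among those called lower, and the receptor genes Ifnar1 and Ifnar2 rose, by 0.47 and 0.43 on the log2 scale. Irf1, a direct activator of Psmb9, stood at 46.5 ± 2.52 CPM in the knockout and 51.9 ± 3.58 CPM in wild type (adjusted p = 0.119 by limma). TMM, median-ratio and quantile scaling and both count tests on recovered reads did call Irf1 lower (adjusted p = 0.0355 to 0.265 over all alternatives). Only 3 genes of this list were lower when KO 3 was left out, and likewise when WT 2 was left out. The call of Jak2 ended without knockout replicate 3 (adjusted p up to 0.051), that of Jak1 without wild type replicate 2 or 3 (up to 0.0642), and that of Irf7 without KO 2, 3 or 4 or WT 1, 2 or 4 (up to 0.1).

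Leukocytes carry much of the immunoproteasome. Beside Psmb9, general leukocyte markers and macrophage and monocyte markers moved in both directions. Of 3 general leukocyte markers, Ptprc was higher (53.3 ± 4.72 CPM in the knockout and 43.4 ± 2.83 CPM in wild type), Coro1a lower (38.2 ± 5.23 CPM in the knockout and 53.8 ± 4.5 CPM in wild type) and Laptm5 not called. Summed over the 3, the level was 194.6 to 225.2 CPM in the knockout and 200.7 to 223.3 CPM in wild type. The 4 B cell markers summed to 33.7 to 122.2 CPM in the knockout and 91.9 to 137.9 CPM in wild type, with 2 of 4 called lower. The 5 T and NK cell markers summed to 56.2 to 80.8 CPM in the knockout and 75.1 to 89.2 CPM in wild type, with 2 of 5 called lower, Cd3g and Nkg7. Of all genes, 14.3% were called lower. All 4 B cell and all 5 T and NK cell markers had negative log2 fold changes (medians -0.82 and -0.39). Nkg7 (adjusted p = 0.0423) was no longer called when KO 2, 3 or 4 or WT 1, 2 or 4 was left out, or with quantile normalization (up to 0.105). Of 6 macrophage and monocyte markers, Marco and Csf1r were higher, by 0.55 and 0.33 on the log2 scale, and Lyz2 lower. Their sum of 3353 to 4036 CPM in the knockout and 5150 to 5865 CPM in wild type is mostly Lyz2, which averaged 3515 ± 358 CPM in the knockout and 5347 ± 359 CPM in wild type. The 3 neutrophil markers summed to 204.6 to 411.0 CPM in the knockout and 238.3 to 361.4 CPM in wild type, with 0 of 3 called by limma (1 each at an unadjusted p under 0.05, by edgeR and by DESeq2). None of these markers was at 0, and their part in the change of Psmb9 was not tested.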

How the data were processed

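CAGE libraries of 8 lungs were sequenced together; per the labels' protocols, cap-trapped cDNA was read as single-end 75 nt reads. Per the submitters' processing notes, the tools were HISAT2 2.0.5, BWA 0.7.12-r1039 and edgeR and the build was mm9, each without a stated role. Tag assignment, annotation and strand use: not given in the sources used here. The values deposited by the authors are CPM, which sum to about 1000000 in each library. Their steps gave whole reads for at least 99.9% of values (within 0.1 reads). These recovered counts are whole multiples of the deposited CPM steps and were used for TMM factors, edgeR 4.0.16 (2247 genes higher and 2326 lower) and DESeq2 1.42.0 (2189 and 2266). The main test compared genotypes on log2(CPM + 0.5) by moderated linear models (limma 3.58.1, trended prior variance, R 4.3.3), keeping genes that reached 1 CPM in 4 or more of the 8 libraries. Fold changes on this scale understate those of low genes. Between libraries of 1 genotype the chi-square per gene was 11.64 to 19.77, so none repeats another. Alternatives were other pseudocounts, filters, scalings and count tests, a replicate block, and leaving out each library. Fits were tested on simulated data. Some genes of the lists are counted but not reported here by name. Members and lists were chosen with earlier results of these data known. The text gives every library for the immunoproteasome, catalytic and called members, and for members with a listed copy of at least 1 CPM. Psma5 and Psme3 were singled out after their values were seen. The 49 rows were matched to GENCODE M21 (GRCm38), 46 by identifier and 3 by symbol, for names, overlaps and 5′ copies (blastn 2.17.0, first 200 nt, at least 97% identity over 75 nt). P-values and the intervals of log2 differences rest on the spread between these lungs.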

Additional observations from a re-analysis of the deposited data

Results flagged for a closer look

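In 4 of 94 groups of 4 libraries (47 genes in each genotype), 1 library stood apart from the other 3 by more than Dixon's critical share of the group's range. Chance flags about 1 in 20 groups. Psma1 was 83.99 CPM in knockout replicate 4, below the other knockout libraries. Psmb2 was 128.48 CPM and Psmb4 107.04 CPM in that library, again the lowest of the knockout. Psmg3 was 19.92 CPM in wild type replicate 3, the lowest of wild type. Without knockout replicate 4, Psmb2 kept its call.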

How the results depend on the processing

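Counts of members called lower depended on scaling: 14 with TMM scaling, 14 with median-ratio scaling, 15 with quantile normalization, 13 with edgeR and 14 with DESeq2 on recovered reads, against 8. Scaling moved the median of all genes by at most 0.021 on the log2 scale; the cause was not tested. Leaving out 1 library gave 5 to 8 members higher and 5 to 8 lower, 1741 to 2387 genes higher and 1552 to 2100 lower over all genes, 3 to 9 pathway genes higher and 2 to 4 lower, 4 to 6 MHC class I genes higher and 0 to 1 lower, and 2 to 2 interferon signal genes higher and 3 to 5 lower. The log2 ratio differences ranged over -0.312 to -0.208 for Psmb9/Psmb6, 0.125 to 0.268 for Psmb10/Psmb7 and -0.281 to -0.200 for Psmb8/Psmb5. Signs changed without 1 library for 7 uncalled genes. Log2 fold changes were then -0.034 to 0.027 for Psme1, -0.106 to 0.013 for Psmg1 and -0.001 to 0.048 for Psmd9. They were -0.072 to 0.032 for Psmb10, -0.018 to 0.061 for Psmf1 and -0.070 to 0.006 for Psmd7. Psma5, whose genotype difference could not be resolved, ranged from -0.306 to 0.077. Same-numbered libraries of both genotypes did not deviate together (correlations -0.003 to 0.065), so the numbers do not pair them; with a replicate block 7 members were higher and 10 lower, Psma3, Psmd14 and, outside the members, Nploc4 were then not called, and the ratio tests cannot go below p = 0.125 (exact sign flips).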
